A study of Homo sapiens with 72 samples.

Results

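The genes described here are 47 epithelial junction and identity genes, taken from a fixed list of gene symbols and found by symbol in the mRNA count files, out of 26485 gene rows in each file. They comprise 2 adhesion proteins, 7 regulators of the epithelial state, 13 tight junction components, 3 polarity proteins, 9 desmosomal and plakin proteins, 4 keratins, 5 genes of membrane traffic and related roles, and 4 surface proteases and protease inhibitors. Their levels were followed in 36 poly(A) RNA libraries from 9 groups of 4 libraries each. Of the 47 genes, 42 passed the filter on low counts in the IGROV1 fit, 42 in the fit of the DU145-derived lines, and 43 in the fit of all libraries.

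The study asked what the loss of TUT4 and TUT7 does in human cancer cells with and without LIN28A. TUT4 and TUT7 are terminal uridylyltransferases, enzymes that add uridines to RNA 3′ ends, and LIN28A is an RNA-binding protein that recruits them to the let-7 precursor. IGROV1 is an ovarian cancer line that makes LIN28A, with genotype labels LIN28A+; TUT4+; TUT7+ for the parental wild-type (WT) cells and LIN28A+; TUT4-; TUT7- for the CRISPR double mutants mutant_1 and mutant_2. DU145 is a prostate cancer line without LIN28A, labelled LIN28A-, with its own parental WT, mutant_1 and mutant_2. A LIN28A cDNA under a CMV promoter was introduced by lentivirus into each of these 3 DU145 cultures, which gave the LIN28A overexpressing (LIN28A-OE) DU145 WT, mutant_1 and mutant_2, labelled LIN28A+. Each mutant is a clone, so that clone and genotype cannot be told apart within one clone, and the LIN28A-OE mutants descend from the same clones as the DU145 mutants.

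The 4 replicates of a group carry successive passage numbers, so that all p-values measure the spread between passages. The clone numbers in the labels of IGROV1 mutant_1, IGROV1 mutant_2 and both mutant_2 groups of DU145 also change in their last part from replicate to replicate, and whether this marks subclones is not given in the sources used here. Passage numbers in the labels were 6 to 9 for IGROV1 WT, 2 to 5 for IGROV1 mutant_1, 3 to 6 for IGROV1 mutant_2, up to 160 for DU145 WT, 9 to 12 for DU145 mutant_1, 8 to 11 for DU145 mutant_2, and 1 to 4 for each LIN28A-OE group. Within DU145, and for IGROV1 mutant_1 against IGROV1 WT, passage number and genotype cannot be told apart. IGROV1 mutant_2 and IGROV1 WT have only passage 6 in common.

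Epithelial cells hold together through adherens junctions, tight junctions and desmosomes. E-cadherin (CDH1) and EpCAM (EPCAM) join neighbouring cells, claudins and occludin seal the space between them, and desmosomal cadherins are tied through plakophilins and plakins to keratin filaments. Transcription factors of the OVOL, GRHL and ELF families and the splicing regulators ESRP1 and ESRP2 maintain this programme, while ZEB, SNAI and TWIST factors repress it, in part through CAGGTG-type sequences in promoters. Matriptase (ST14) and prostasin (PRSS8) are surface serine proteases of epithelia, and SPINT1 and SPINT2 inhibit them.

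The targeted genes were checked first. The mean level of TUT4 in CPM (a count scaled to the total of gene-assigned reads in its library) was 78.0 in IGROV1 WT, 26.6 in mutant_1 and 27.1 in mutant_2, and both falls passed edgeR's quasi-likelihood test at a Benjamini-Hochberg adjusted p under 0.01, the threshold used throughout. TUT4 was 56.7 CPM in DU145 WT and 12.02 CPM in mutant_1, a called fall, but 41.7 CPM in mutant_2, where the difference was not called (log2 fold change -0.57, adjusted p = 0.0295). In LIN28A-OE DU145 the TUT4 means were 66.1, 19.8 and 60.9 CPM, and the mutant_2 value again was not called (adjusted p = 0.317). TUT7 was called lower in all 6 mutant groups, with log2 fold changes from -1.58 to -0.86. The targeted stretch is a small part of each mRNA, so that these levels are only a partial check of the labels. LIN28A stood at 226, 202 and 266 CPM in IGROV1 WT, mutant_1 and mutant_2, at 0.115 to 0.148 CPM in the DU145 groups, and at 69.6, 379 and 262 CPM in LIN28A-OE DU145 WT, mutant_1 and mutant_2. The introduced gene was thus at unequal levels in the 3 LIN28A-OE groups (log2 fold changes against LIN28A-OE WT 2.41 and 1.76, both called), and its part in the LIN28A-OE comparisons was not tested.

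Of ovarian markers, PAX8 and FOLR1 were abundant in IGROV1 WT, at means of 640 and 626 CPM, while WT1, MSLN and MUC16 were low, at 0.329, 0.538 and 2.11 CPM. Of prostate markers, AMACR was at 5.29 CPM in DU145 WT, and KLK3 had no count in any DU145 WT library. Gene-assigned counts per library ranged from 7195437 to 25054688 (median 13444850). Replicates correlated with a mean r of 0.980 or more on the log scale, except for 3 libraries that stood apart, namely IGROV1 mutant_1 replicate 4 (0.963), LIN28A-OE DU145 WT replicate 1 (0.962) and IGROV1 mutant_2 replicate 4 (0.977). Counts of genes called in comparisons with these libraries are also given without them, and neither CDH1, EPCAM nor the genes of largest change in each comparison lost a call without one of the 3. In bulk RNA, fewer cells of a type and less RNA per cell cannot be told apart.

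Promoter windows are shown here for 3 of the genes that fell in both IGROV1 mutants. The windows differ in the number of matches to the letters that ZEB and SNAI factors recognise, and the KRT8 window has none. Windows of other genes that fell are not shown. Some, such as CRB3, also held matches, and those of CLDN1, MARVELD2, CGN and GRHL1 held none. Matches were also found in windows of CLDN7, ELF3 and TJP3, which were called in neither IGROV1 mutant. Of the 47 genes, 24 have an entry in the RefSeq promoter table (GRCh38.p14) and 36 windows of 250 bases before a listed start, and CDH1, EPCAM, PKP3, ESRP2 and ST14 are among the 23 not covered by these counts. CAGGTG, read on either strand as CAGGTG or CACCTG, was found in 16 of the 36 windows (44.4%), and in 6143 of the 35116 windows of that length in the table (17.5%). AACCGGTT, a GRHL-type sequence, was in none of the 36 windows and in 0.117% of all windows. KRT8, a simple epithelial keratin on the minus strand, held no CAGGTG in chr12:52926470-52926719. This window precedes a listed start but lies inside the annotated KRT8 span (chr12:52897187-52949954), and the sequence before that span was not examined. DSG2, the desmosomal cadherin desmoglein 2 on the plus strand, held 2 matches in chr18:31497927-31498176, at 232 and 116 bases before the start. CDS1, a phospholipid enzyme gene on the plus strand, held 1 match in chr4:84582877-84583126, at 27 bases before the start. The sequences run 5′ to 3′ on the strand of the gene, with matches in capitals.
KRT8: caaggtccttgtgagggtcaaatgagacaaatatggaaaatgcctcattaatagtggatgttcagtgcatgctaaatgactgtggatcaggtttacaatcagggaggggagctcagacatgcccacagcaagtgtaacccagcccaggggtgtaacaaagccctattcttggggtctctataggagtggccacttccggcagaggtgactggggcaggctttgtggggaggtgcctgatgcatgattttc
DSG2: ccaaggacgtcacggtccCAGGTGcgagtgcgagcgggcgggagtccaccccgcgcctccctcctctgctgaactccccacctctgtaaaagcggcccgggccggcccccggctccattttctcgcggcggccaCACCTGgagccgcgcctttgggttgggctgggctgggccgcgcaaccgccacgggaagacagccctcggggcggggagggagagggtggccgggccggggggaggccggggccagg
CDS1: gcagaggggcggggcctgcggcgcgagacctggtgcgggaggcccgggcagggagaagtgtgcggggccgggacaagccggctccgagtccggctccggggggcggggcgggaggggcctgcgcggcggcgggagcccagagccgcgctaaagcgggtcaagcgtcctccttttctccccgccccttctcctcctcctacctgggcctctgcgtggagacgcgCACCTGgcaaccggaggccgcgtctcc
These matches are descriptions of letters, and binding of any factor was not measured.

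In the wild-type lines the genes were mostly expressed but at different levels. IGROV1 WT had 39 of the 47 genes at a mean of 1 CPM or more and 33 at 10 CPM or more, and DU145 WT had 42 and 32. On a scale per kilobase of exon (RPKM), KRT19 was the highest of the 47 genes in IGROV1 WT, at 298 RPKM, followed by MAL2, a raft protein of apical transport, at 172 RPKM and CLDN1 at 116 RPKM. In DU145 WT, KRT7 was far higher, at 726 RPKM, followed by KRT19 at 223 RPKM and KRT18 at 148 RPKM. These ranks depend on the summed length of all annotated exons. KRT8 had 784 CPM in DU145 WT against 521 CPM for KRT19, with 6881 bases of exon against 2336. E-cadherin was low in IGROV1 WT, at 0.743 RPKM against 31.8 RPKM for EPCAM, whereas the same genes stood at 14.0 and 22.3 RPKM in DU145 WT. The mutants of IGROV1 had fewer of the genes above 1 CPM, with 29 in mutant_1 and 30 in mutant_2, while the DU145 and LIN28A-OE DU145 groups had 38 to 42.

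**Figure D1:**
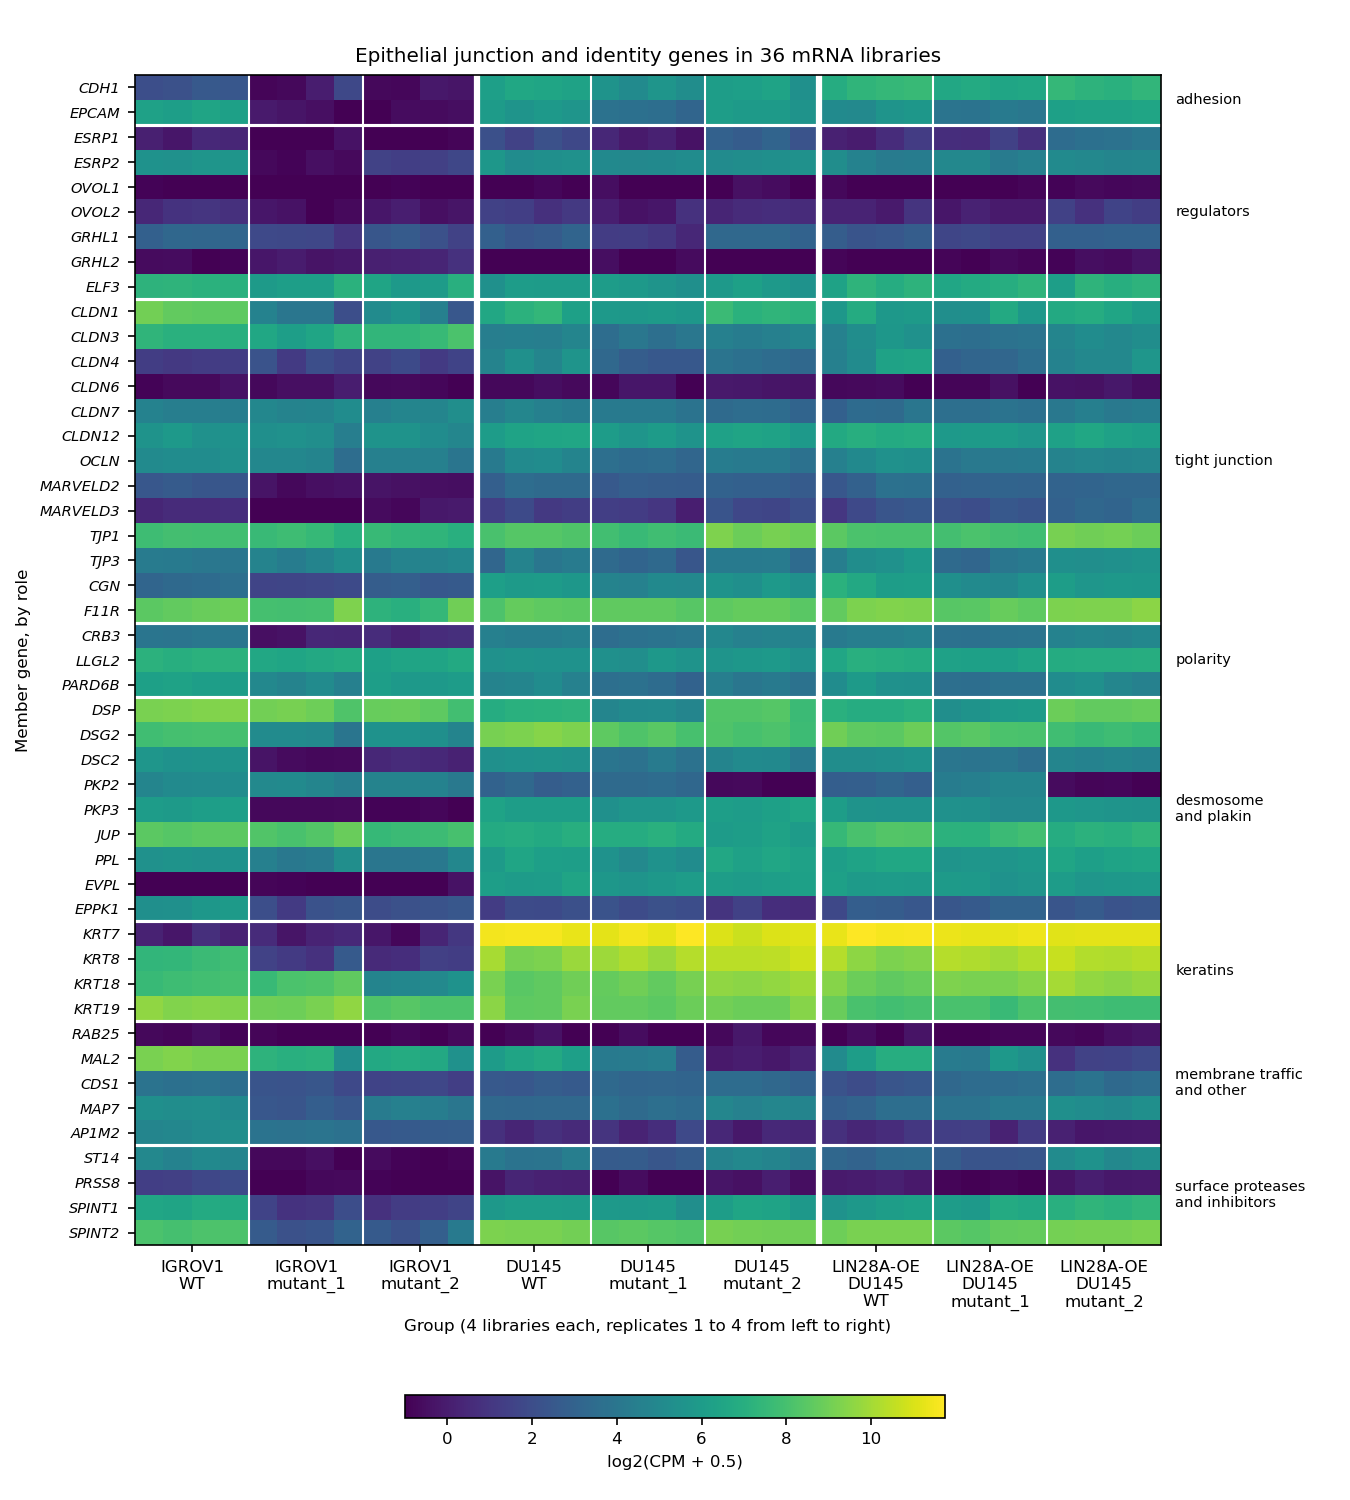
Level of each of the 47 genes, as log2(CPM + 0.5), in the 36 mRNA libraries; rows are genes ordered by role and columns are libraries, 4 per group. The dark cells of EPCAM, PKP3, DSC2, ST14 and PRSS8 in the IGROV1 mutants and of PKP2 and MAL2 in mutant_2 of DU145 stand against brighter cells in the WT libraries of the same line.

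In IGROV1, 24 of the 42 tested genes fell in mutant_1 and none rose, and in mutant_2 31 fell and 1 rose. Among all 13932 genes tested, 14.9% were called lower and 12.7% higher in mutant_1, and 14.3% lower and 13.1% higher in mutant_2, so that the shares called lower here, 57.1% and 73.8%, were well above those of all genes while the shares called higher were below them. The median log2 fold change of the 42 genes was -1.60 in mutant_1 and -1.42 in mutant_2, against 0.01 over all genes in both. No gene of the list was called higher in mutant_1 by edgeR's quasi-likelihood test, with 4 higher at an unadjusted p under 0.05 and 1 called higher by DESeq2. Without mutant_1 replicate 4 the mutant_1 count was 28 lower and none higher, and without mutant_2 replicate 4 the mutant_2 count was 32 lower and 1 higher. ESRP1, OVOL1, CLDN6, EVPL and RAB25 did not pass the filter in IGROV1.

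**Figure D2:**
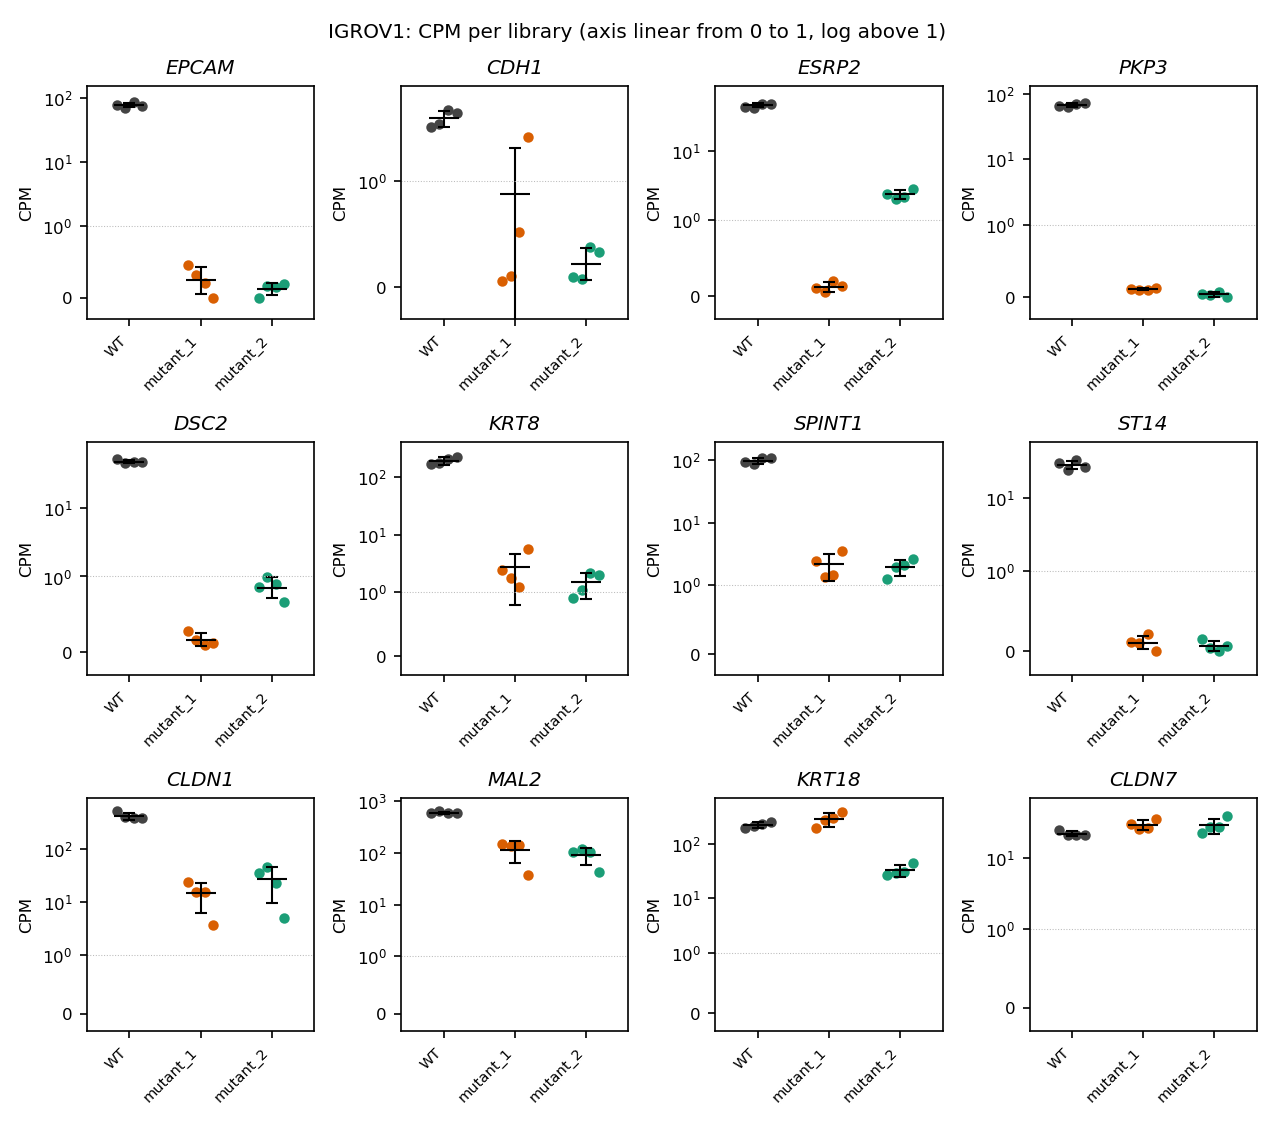
CPM of 12 of the genes in each IGROV1 library, with an axis that is linear from 0 to 1 and logarithmic above 1; points are libraries, the horizontal bar is the mean and the whiskers the SD of 4. EPCAM, PKP3, DSC2 and ST14 lie between 24.7 and 85.1 CPM in the WT libraries and below 1 CPM in all 8 mutant libraries, while CLDN7 lies at 20.8 to 38.9 CPM in all 12.

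Adhesion came first. EPCAM (chr2:47345158-47387601, plus strand, hg38) measured 78.6, 70.8, 85.1 and 75.0 CPM in the WT libraries, 0.457, 0.318, 0.206 and 0 CPM in mutant_1, and 0, 0.160, 0.151 and 0.197 CPM in mutant_2. The WT and mutant libraries did not overlap, and the mean CPM was 315-fold lower in mutant_1 and 610-fold lower in mutant_2. The fitted log2 fold changes were -7.97 (SE 0.34, adjusted p = 2.38e-09) and -9.24 (SE 0.36, adjusted p = 1.12e-09). CDH1 (chr16:68737292-68835537, plus strand) was already low in WT, at 3.62, 3.91, 5.46 and 5.07 CPM. It measured 0.0572, 0.106, 0.516 and 2.85 CPM in mutant_1 and 0.101, 0.0798, 0.376 and 0.329 CPM in mutant_2. All mutant libraries lay below the WT libraries, but mutant_1 replicate 4 lay far above the other 3 of its group. CDH1 fell in both (log2 fold changes -2.75, SE 0.71, adjusted p = 7.36e-03, and -4.51, SE 0.78, adjusted p = 5.08e-04). The mutant_1 call was lost by DESeq2 (adjusted p = 0.0535) and when any one WT library or any one of mutant_1 replicates 1 to 3 was left out (adjusted p 0.0133 to 0.0253), while without mutant_1 replicate 4 the CDH1 value was -4.60 with adjusted p = 6.47e-06.

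Of the regulators, ESRP2, OVOL2 and GRHL1 were lower in each clone against WT, and the ELF3 difference was called in neither. ESRP2 (chr16:68229033-68238102, minus strand), an epithelial splicing regulator, was at 44.1, 42.9, 48.8 and 49.1 CPM in WT and at 0.114, 0.0529, 0.206 and 0.129 CPM in mutant_1. In mutant_2 ESRP2 kept 2.37, 2.04, 2.18 and 2.83 CPM, so that the mutant clones did not overlap with each other either. The ESRP2 level was 367-fold lower in mutant_1 (log2 fold change -8.55, SE 0.25, adjusted p = 1.16e-10) and 19.6-fold lower in mutant_2 (log2 fold change -4.32, SE 0.17, adjusted p = 7.98e-10). ESRP2 also differed between the clones, with a log2 fold change of -4.23 for mutant_1 against mutant_2 (SE 0.30, adjusted p = 4.83e-07). GRHL2 was the only gene of the list called higher in an IGROV1 mutant, at means of 0.0962 CPM in WT, 0.379 in mutant_1 and 0.822 in mutant_2 (mutant_2 log2 fold change 2.90, adjusted p = 3.79e-04), and stayed under 1 CPM on average. ESRP1 was close to the floor, with 45 counts over the WT libraries, 2 over mutant_1 and 1 over mutant_2, which gives ratios of 9.92 (95% counting interval 4.48 to 146) and 39.0 (7.98 to 1889) that cover counting error only.

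Of the desmosome genes, PKP3 had the largest fall among the tested genes of the list in both clones. PKP3 (chr11:392614-404908, plus strand), a plakophilin of the desmosomal plaque, was at 65.2, 61.6, 70.1 and 72.4 CPM in WT and at 0.114, 0.106, 0.103 and 0.129 CPM in mutant_1. In mutant_2 PKP3 was at 0.0504, 0.0399, 0.0753 and 0 CPM, from 3 counts in all. The WT level was 595 times that of mutant_1 (log2 fold change -9.10, SE 0.22, adjusted p = 4.72e-11) and 1626 times that of mutant_2 (counting interval 563 to 7990, log2 fold change -10.47, SE 0.23, adjusted p = 1.78e-11). Both clones thus lost nearly the whole PKP3 signal. The mutant_2 SE of PKP3 comes from the test statistic and is narrower than the counting interval. DSC2 (chr18:31058840-31102522, minus strand), the desmosomal cadherin desmocollin 2, was at 51.3, 45.3, 46.8 and 46.7 CPM in WT, at 0.286, 0.159, 0.103 and 0.129 CPM in mutant_1 and at 0.857, 0.998, 0.903 and 0.658 CPM in mutant_2. The DSC2 groups did not overlap, the falls were 281-fold and 55.6-fold, and the log2 fold changes were -7.91 (SE 0.20, adjusted p = 5.35e-11) and -5.80 (SE 0.16, adjusted p = 1.26e-10). DSG2, whose promoter window is printed above, fell from a mean of 249 CPM to 29.0 in mutant_1 and 39.0 in mutant_2. The plakin EPPK1 fell 13.6-fold and 11.8-fold. In contrast PKP2, the other plakophilin of the list, was not called in either clone (log2 fold changes -0.15, adjusted p = 0.428, and -0.54, adjusted p = 0.0103), although with the replicate number as a block PKP2, ELF3 and F11R were called in mutant_2. In all, 4 of the 8 tested desmosome and plakin genes fell in mutant_1 and 7 in mutant_2, where DSP, JUP and PPL were called as well.

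Keratins differed within the pair that forms one filament. KRT8 (chr12:52897187-52949954, minus strand) was at 168, 174, 208 and 228 CPM in WT, at 2.40, 1.75, 1.24 and 5.56 CPM in mutant_1 and at 0.908, 1.08, 2.18 and 1.97 CPM in mutant_2. These KRT8 falls were 71.1-fold and 127-fold (log2 fold changes -6.17, SE 0.42, adjusted p = 1.10e-07, and -7.06, SE 0.43, adjusted p = 4.30e-08). KRT18, the partner keratin of KRT8, was at 195, 220, 237 and 251 CPM in WT and at 195, 278, 301 and 392 CPM in mutant_1, which overlapped (log2 fold change 0.45, SE 0.23, adjusted p = 0.133). In mutant_2 KRT18 was at 26.7, 29.0, 31.3 and 44.03 CPM, 6.89-fold lower and without overlap (log2 fold change -2.80, SE 0.24, adjusted p = 1.18e-06), and the 2 clones differed by 3.25 on the log2 scale (adjusted p = 1.07e-06). The annotated KRT8 span overlaps that of KRT18 (chr12:52948871-52952906, plus strand), the strand setting of the counting is not given in the sources used here, and both have many processed copies in the genome, so that reads shared between copies were not counted. KRT19 was called lower in mutant_2 (mean 308 CPM against 696), and KRT7 was near 1 CPM or below in most IGROV1 libraries.

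Tight junction genes were split. CLDN1 had the largest loss among the claudins, from 518, 403, 386 and 382 CPM in WT to 24.3, 15.6, 15.4 and 3.62 CPM in mutant_1 and 35.2, 46.8, 22.7 and 5.002 CPM in mutant_2. The WT mean of CLDN1 was 28.7 and 15.4 times those of the mutants, and replicate 4 was the lowest of both clones. MARVELD2 and MARVELD3, relatives of occludin, fell with it, and MARVELD3 had 68 counts over the WT libraries and none over mutant_1, which makes it at least 17.3-fold lower against a floor of 3 counts over the group. The cytoplasmic linker CGN was also called in both clones, and OCLN and TJP1 in mutant_2. In contrast CLDN3, CLDN4, CLDN7, CLDN12, TJP3 and F11R were called in neither, and CLDN7 was at 24.6, 21.3, 21.4 and 20.8 CPM in WT, at 29.8, 25.6, 26.6 and 35.7 CPM in mutant_1 and at 22.5, 26.9, 27.4 and 38.9 CPM in mutant_2. Of the polarity genes, CRB3 fell from a mean of 15.3 CPM to 0.524 and 0.978 CPM, while PARD6B was called in mutant_1 and LLGL2 in mutant_2 (with the replicate block LLGL2 in mutant_1 as well), of which PARD6B also differed between the clones (log2 fold change -1.05, adjusted p = 6.75e-05).

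The surface proteases and their inhibitors moved together. All 4 fell in mutant_1 and all 4 in mutant_2. ST14 (chr11:130159782-130210362, plus strand), the protease matriptase, was at 30.1, 24.7, 33.1 and 27.2 CPM in WT, at 0.114, 0.106, 0.206 and 0 CPM in mutant_1 and at 0.151, 0.0399, 0 and 0.0658 CPM in mutant_2. The ST14 falls were 270-fold and 447-fold (log2 fold changes -7.88, SE 0.32, adjusted p = 1.69e-09, and -8.60, SE 0.33, adjusted p = 7.98e-10). They rest on 6 and 5 counts over the mutant groups. With one library left out the mutant_2 log2 fold change ranged from -9.34 to -8.33. SPINT1 (chr15:40844018-40858207, plus strand), its inhibitor, was at 91.8, 86.5, 109 and 108 CPM in WT, at 2.46, 1.32, 1.45 and 3.49 CPM in mutant_1 and at 1.26, 1.92, 2.11 and 2.57 CPM in mutant_2. Enzyme and inhibitor were both far below WT in every mutant library, with SPINT1 45.2-fold and 50.2-fold lower (log2 fold changes -5.49, SE 0.30, adjusted p = 2.03e-08, and -5.69, SE 0.30, adjusted p = 1.23e-08). SPINT2 fell from a mean of 279 CPM to 5.50 and 8.72 CPM. PRSS8 had 183 counts over WT, 2 over mutant_1 and 1 over mutant_2 (ratios 44.6, counting interval 19.0 to 581, and 206, counting interval 33.7 to 7558). All 4 tested genes of membrane traffic and related roles, MAL2, CDS1, MAP7 and AP1M2, fell in both clones too, with log2 fold changes from -2.77 to -0.95.

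The IGROV1 clones differed from each other in 10 of the 42 genes, 5 higher and 5 lower in mutant_1, where 16.5% of all genes tested differed. ESRP2, CGN, PARD6B, DSC2 and MAP7 were lower in mutant_1, and JUP, KRT18, KRT19, CDS1 and AP1M2 were higher. With both clones averaged, 30 of the 42 genes fell and GRHL2 rose (15.9% lower and 13.9% higher among all genes), and the median log2 fold change was -1.59. With the replicate number as a block, CLDN3 was also called between the clones, and DSP, ELF3, F11R and JUP in their average. Without mutant_1 replicate 4 the clones differed in 4 genes upward and 6 downward and their average had 33 lower and 1 higher. Without mutant_2 replicate 4 these counts were 5 and 6, and 32 and 1.

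**Figure D3:**
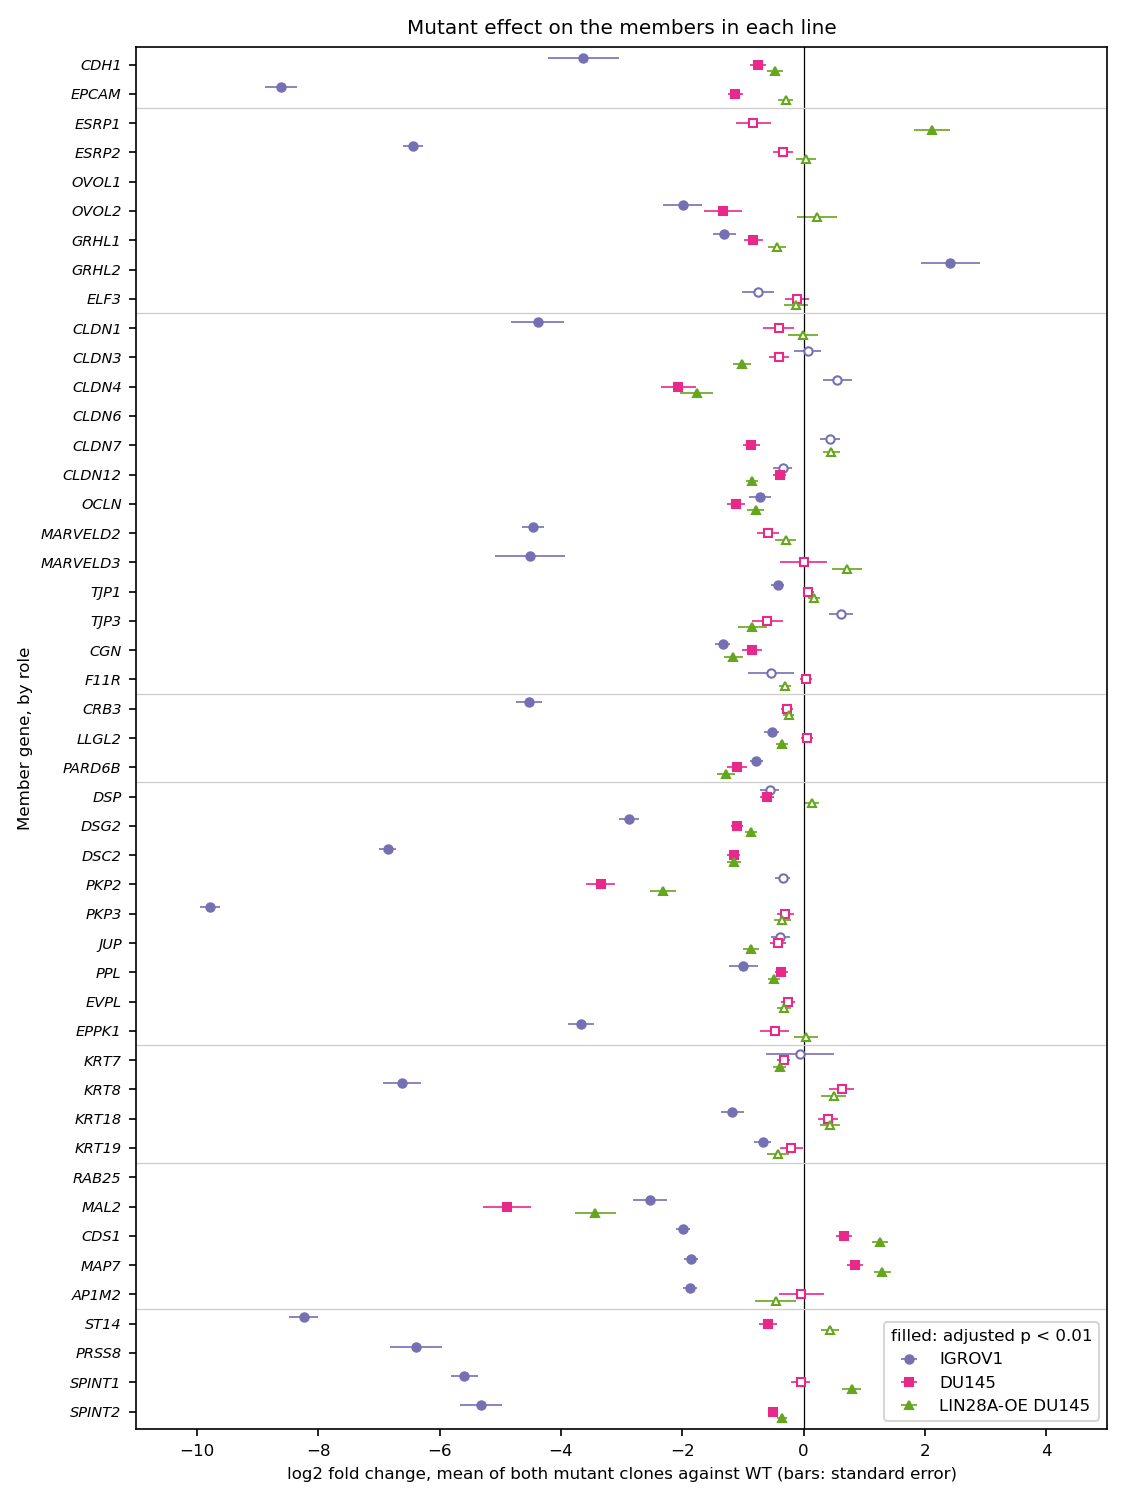
Log2 fold change of each tested gene for the mean of both mutant clones against WT, in IGROV1 (circles), DU145 (squares) and LIN28A-OE DU145 (triangles). Bars are the SE taken from the test statistic, and filled symbols have an adjusted p under 0.01. IGROV1 values reach from -9.79 for PKP3 to 2.42 for GRHL2, and the lowest DU145 value is -4.89 for MAL2.

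In DU145, 16 genes were called in mutant_2 against 32 in IGROV1 mutant_2. The mutant_1 counts were closer, at 22 in DU145 and 24 in IGROV1, and DESeq2 called 24 in both. The test of the difference between the lines is given further on. In mutant_1, 21 of the 42 tested genes fell and 1 rose, where 13.1% of all 14561 genes tested were called lower and 12.8% higher. In mutant_2, 11 fell and 5 rose, where 13% of all genes were lower and 10.9% higher. The share of the list called lower was 21 of 42 in mutant_1 and 26.2% in mutant_2, and the share called higher in mutant_2, 11.9%, was near that of all genes. Median log2 fold changes were -0.57 and -0.14. OVOL1, GRHL2, CLDN6, RAB25 and PRSS8 did not pass the filter, and PRSS8 had 22 counts over DU145 WT and 2 over mutant_1 (ratio 12.6, counting interval 2.82 to 101).

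**Figure D4:**
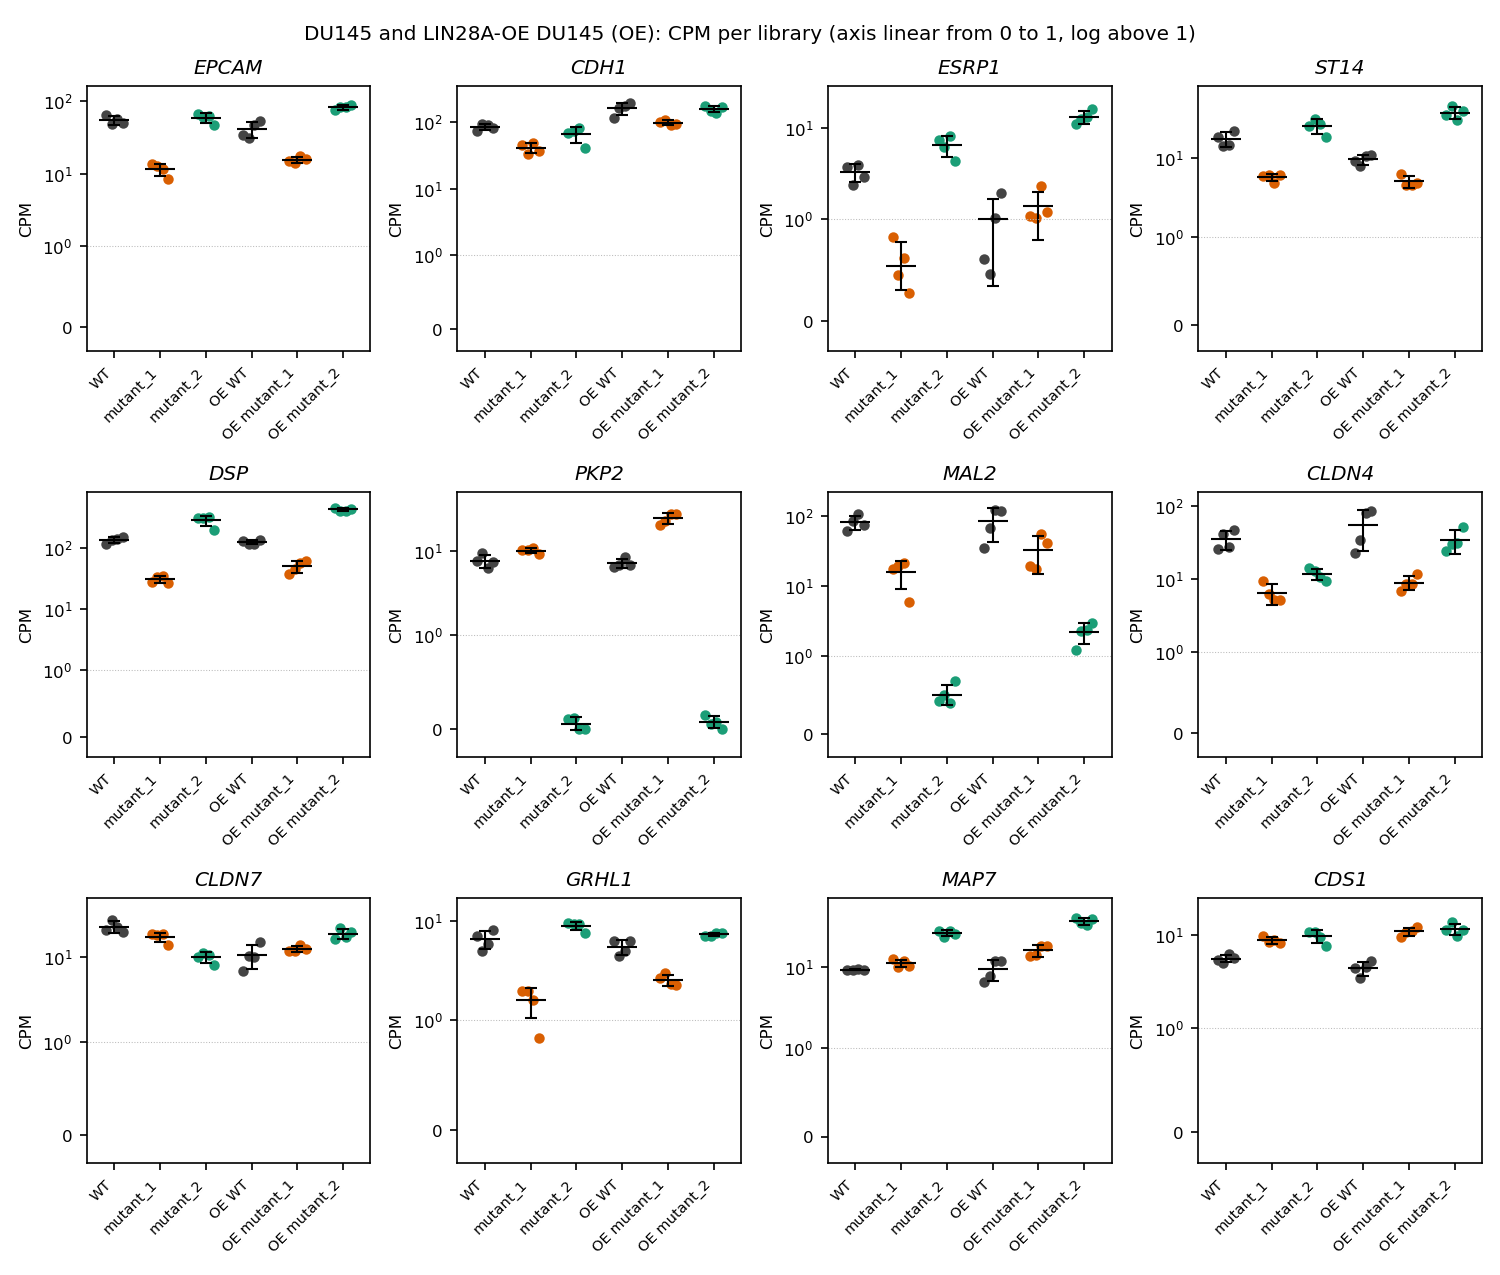
CPM of 12 of the genes in each DU145 and LIN28A-OE DU145 (OE) library, with an axis that is linear from 0 to 1 and logarithmic above 1; points are libraries, the horizontal bar is the mean and the whiskers the SD of 4. PKP2 stays at or below 0.155 CPM in both mutant_2 groups and above 6 CPM in all others.

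EPCAM was at 63.9, 48.2, 56.0 and 48.9 CPM in DU145 WT, at 13.5, 12.5, 11.5 and 8.48 CPM in mutant_1 and at 66.9, 60.8, 61.4 and 45.9 CPM in mutant_2. Mutant_1 lay below all WT libraries while mutant_2 overlapped them. EPCAM fell 4.72-fold in mutant_1 (log2 fold change -2.22, SE 0.16, adjusted p = 2.24e-10), and the mutant_2 value was -0.03 (SE 0.15, adjusted p = 0.916). CDH1 was at 73.6, 94.8, 90.6 and 82.0 CPM in WT, at 45.7, 33.7, 49.5 and 37.4 CPM in mutant_1 and at 68.5, 72.7, 83.0 and 41.7 CPM in mutant_2. CDH1 was 2.05-fold lower in mutant_1 without overlap (log2 fold change -1.02, SE 0.16, adjusted p = 2.49e-05), and in mutant_2 the libraries overlapped and the difference was not called (log2 fold change -0.49, SE 0.16, adjusted p = 0.0171).

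DU145 mutant_1 showed lower levels across several structures. CLDN4 (chr7:73799542-73832690), a claudin of tight epithelia, was at 25.6, 41.3, 27.3 and 47.4 CPM in WT, at 9.51, 6.18, 5.15 and 5.14 CPM in mutant_1 and at 14.2, 12.8, 10.7 and 9.48 CPM in mutant_2. Both clones lay below WT (5.45-fold and 3.01-fold, log2 fold changes -2.42, SE 0.36, adjusted p = 2.34e-05, and -1.72, SE 0.35, adjusted p = 4.96e-04). DSP (chr6:7541338-7586714, plus strand), the plakin that anchors keratins to desmosomes, was at 119, 137, 142 and 153 CPM in WT, at 27.7, 33.4, 34.6 and 27.2 CPM in mutant_1, and at 310, 311, 328 and 203 CPM in mutant_2. The 2 clones lay on opposite sides of WT, with DSP 4.48-fold lower in mutant_1 (log2 fold change -2.14, SE 0.14, adjusted p = 4.82e-11) and 2.09-fold higher in mutant_2 (log2 fold change 0.93, SE 0.13, adjusted p = 6.41e-06). GRHL1, a grainyhead-like transcription factor, was at 6.96, 4.98, 5.89 and 8.13 CPM in WT and at 1.94, 1.97, 1.60 and 0.834 CPM in mutant_1 (log2 fold change -1.97, SE 0.21, adjusted p = 8.98e-08). It was at 9.40, 9.25, 9.31 and 7.54 CPM in mutant_2, where GRHL1 was not called (adjusted p = 0.165). ST14 was at 18.3, 14.0, 14.5 and 21.7 CPM in WT and at 5.82, 6.01, 4.80 and 5.98 CPM in mutant_1, a fall of 3.03-fold (log2 fold change -1.59, SE 0.19, adjusted p = 4.53e-07). In mutant_2 ST14 was at 25.2, 30.6, 26.4 and 18.4 CPM, which overlapped WT (log2 fold change 0.41, adjusted p = 0.0606).

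DU145 mutant_2 was marked by near loss of 2 genes. MAL2 was at 62.5, 85.04, 108 and 73.9 CPM in WT, at 17.9, 19.3, 21.3 and 5.98 CPM in mutant_1, and at 0.427, 0.5002, 0.398 and 0.677 CPM in mutant_2. The fall was 5.11-fold in mutant_1 (log2 fold change -2.32, SE 0.40, adjusted p = 1.31e-04) and 164-fold in mutant_2 (log2 fold change -7.46, SE 0.60, adjusted p = 5.51e-09). PKP2 (chr12:32790745-32896798, minus strand) was at 7.47, 9.45, 6.16 and 7.30 CPM in WT and at 10.1, 10.0, 10.7 and 9.03 CPM in mutant_1, where it was not called (log2 fold change 0.41, adjusted p = 0.0620). In mutant_2 PKP2 had 2 counts in all and was at 0.107, 0.125, 0 and 0 CPM (131-fold lower, counting interval 41.7 to 1262, log2 fold change -7.10, SE 0.36, adjusted p = 6.03e-13). Smaller falls in mutant_2 were those of CLDN7, from 21.4, 28.1, 23.1 and 20.1 CPM to 10.1, 11.3, 10.8 and 8.03 CPM (2.30-fold, log2 fold change -1.34, SE 0.17, adjusted p = 9.74e-07), and of DSG2. DSG2 was at 558, 593, 679 and 595 CPM in WT, at 381, 305, 359 and 259 CPM in mutant_1 and at 304, 258, 294 and 213 CPM in mutant_2, lower in both (log2 fold changes -0.88 and -1.31). MAP7, a microtubule-associated protein of epithelia (chr6:136342281-136550819, minus strand), rose in mutant_2 from 9.31, 9.14, 9.38 and 9.31 CPM to 28.6, 24.01, 28.4 and 26.0 CPM (2.88-fold, log2 fold change 1.40, SE 0.15, adjusted p = 1.48e-07). CDS1 rose in both clones (log2 fold changes 0.67, adjusted p = 8.15e-04, and 0.65, adjusted p = 1.04e-03), in contrast to its fall in IGROV1. TJP1 and KRT18 were the other genes called higher in mutant_2.

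By structure, DU145 mutant_1 had 7 of 12 tested tight junction genes lower, 4 of 9 desmosome and plakin genes lower. The keratins KRT7, KRT8, KRT18 and KRT19 had log2 fold changes of -0.04, 0.47, 0.07 and -0.32 there, with adjusted p-values from 0.111 to 0.857, and were not called. The clones differed from each other in 21 of the 42 genes, 7 higher and 14 lower in mutant_1, where 35.5% of all genes tested differed. Same-numbered libraries of these clones deviated together, and with the replicate number as a block CDH1 was not called while CLDN3 and OCLN were, for 22 genes in all. With both averaged, 18 fell and 2 rose (12.5% lower and 9.07% higher among all genes), with a median of -0.41. The 18 include genes on which the clones disagree. DSP was called higher in mutant_2, PKP2 was called only in mutant_2, and EPCAM and ST14 only in mutant_1.

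In LIN28A-OE DU145, the mutants were set against LIN28A-OE WT. In mutant_1, 21 of the 42 genes fell and 3 rose, where 15.1% of all genes were called lower and 12.9% higher. In mutant_2, 9 fell and 11 rose, where 12.5% were lower and 11.4% higher. Medians were -0.56 and -0.15, so that the mutant_2 genes moved in both directions. Without LIN28A-OE WT replicate 1, which stood apart, the counts were 21 lower and 4 higher in mutant_1 and 12 lower and 12 higher in mutant_2.

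EPCAM was at 34.1, 31.0, 47.1 and 52.4 CPM in LIN28A-OE WT, at 14.7, 14.1, 17.6 and 15.9 CPM in mutant_1 and at 74.6, 81.5, 81.2 and 88.9 CPM in mutant_2. The 3 groups did not overlap, with EPCAM 2.64-fold lower in mutant_1 (log2 fold change -1.43, SE 0.15, adjusted p = 7.63e-08) and 1.98-fold higher in mutant_2 (log2 fold change 0.84, SE 0.15, adjusted p = 8.46e-05). CDH1 was at 118, 162, 176 and 195 CPM in LIN28A-OE WT, at 100, 109, 89.9 and 95.1 CPM in mutant_1 and at 176, 150, 138 and 168 CPM in mutant_2. CDH1 fell 1.65-fold in mutant_1 (log2 fold change -0.75, SE 0.16, adjusted p = 4.31e-04) and was not called in mutant_2 (log2 fold change -0.19, adjusted p = 0.357).

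Among called genes with a mean of 5 CPM or more in one group, the 6 largest changes of LIN28A-OE mutant_1 were those of CLDN4, PARD6B, PKP2, TJP3, CLDN3 and DSC2. CLDN4 was at 22.9, 34.5, 79.3 and 86.5 CPM in LIN28A-OE WT and at 6.95, 8.53, 8.68 and 11.6 CPM in mutant_1 (6.24-fold lower, log2 fold change -2.66, SE 0.35, adjusted p = 2.95e-06). PARD6B, a scaffold of the polarity complex, was at 36.4, 62.1, 43.6 and 41.7 CPM in WT and at 12.1, 11.5, 13.6 and 13.6 CPM in mutant_1 (3.62-fold lower, log2 fold change -1.89, SE 0.19, adjusted p = 3.33e-08). Neither gene overlapped between the groups. TJP3, a tight junction plaque protein, was at 21.1, 36.8, 43.0 and 57.6 CPM and fell to 10.0, 8.67, 15.4 and 18.6 CPM (3.01-fold, log2 fold change -1.62, SE 0.29, adjusted p = 1.20e-04). CLDN3 went from 23.7, 37.6, 52.8 and 43.0 CPM to 12.8, 11.5, 13.3 and 14.7 CPM (3.002-fold, log2 fold change -1.62, SE 0.19, adjusted p = 2.62e-07). DSC2 went from 38.1, 37.0, 40.2 and 45.4 CPM to 15.7, 14.4, 15.4 and 12.04 CPM (2.79-fold, log2 fold change -1.51, SE 0.14, adjusted p = 5.26e-09). The WT libraries of CLDN4 spread widely, whereas those of DSC2 lay close together. PKP2 went the other way, from 6.48, 6.74, 8.45 and 6.69 CPM in WT to 19.9, 22.4, 27.2 and 27.3 CPM in mutant_1 (3.41-fold higher, log2 fold change 1.73, SE 0.16, adjusted p = 1.21e-08).

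In LIN28A-OE mutant_2 PKP2 was again near 0, at 0.155, 0.0612, 0.0753 and 0 CPM (97.4-fold lower, log2 fold change -6.38, SE 0.31, adjusted p = 1.09e-13). This rests on 5 counts over the group, and with one library left out the PKP2 value ranged from -6.98 to -6.10. MAL2 was at 35.0, 67.2, 123 and 120 CPM in WT and at 1.24, 2.33, 2.41 and 3.03 CPM in mutant_2 (38.4-fold lower, log2 fold change -5.45, SE 0.49, adjusted p = 2.10e-08). These are the genes of deepest fall in the same clone without LIN28A. Other genes rose. ESRP1, the splicing regulator, was at 0.609, 0.465, 1.03 and 1.93 CPM in WT and at 10.9, 12.6, 13.2 and 15.97 CPM in mutant_2 (13.1-fold higher, log2 fold change 3.66, SE 0.31, adjusted p = 1.69e-09). ST14 was at 8.97, 7.73, 10.5 and 10.7 CPM in WT and at 34.7, 44.4, 29.9 and 38.9 CPM in mutant_2 (3.90-fold higher, log2 fold change 1.82, SE 0.17, adjusted p = 1.17e-08). DSP was at 134, 116, 119 and 138 CPM in WT, at 38.3, 45.7, 57.2 and 62.7 CPM in mutant_1, and at 470, 417, 416 and 445 CPM in mutant_2 (3.45-fold higher in mutant_2, log2 fold change 1.63, SE 0.13, adjusted p = 1.15e-09). The mutant clones again lay on either side of WT for DSP. MAP7 was at 6.48, 7.79, 11.8 and 11.9 CPM in WT and at 40.5, 35.9, 33.1 and 40.3 CPM in mutant_2 (3.95-fold higher, log2 fold change 1.84, SE 0.15, adjusted p = 9.72e-10). The LIN28A-OE clones differed from each other in 27 of the 42 genes, 5 higher and 22 lower in mutant_1, where 41.5% of all genes differed. Averaged over both clones, 17 fell and 4 rose (12.5% and 8.23% among all genes), with a median of -0.34, and without WT replicate 1 the counts were 19 and 6. The 17 include PKP2, which was called higher in mutant_1. With the replicate number as a block, CDH1 and TJP3 were not called in this average, which left 19 genes in all against 21.

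The DU145 and LIN28A-OE DU145 comparisons share no library, although the mutants share a clone of origin. Of the 21 genes called lower in DU145 mutant_1 and the 21 in LIN28A-OE mutant_1, 17 were the same (81.0% of each list, where 21 of all 42 tested genes were lower in each), and none was called in opposite directions. For mutant_2, 7 genes were lower in both (63.6% of 11 and 77.8% of 9, beside 21.4% and 26.2% of all 42 lower in the other comparison), namely DSC2, DSG2, JUP, KRT7, MAL2, PARD6B and PKP2. The genes higher in both were CDS1, DSP, MAP7 and TJP1 (80.0% of 5 and 36.4% of 11, beside 26.2% and 11.9% of all 42), and CLDN7 was called in opposite directions. The test of the difference itself, mutant effect with LIN28A-OE minus mutant effect without it, passed for 2 genes in mutant_1 (0.838% of all genes), ESRP1 (difference 3.08 on the log2 scale, SE 0.53, adjusted p = 2.03e-03) and PKP2 (1.32, SE 0.24, adjusted p = 2.71e-03). In mutant_2 it passed for 3 genes (0.474% of all genes), ESRP1 (2.80, SE 0.42, adjusted p = 9.50e-04), CLDN7 (2.02, SE 0.23, adjusted p = 3.69e-05) and ST14 (1.40, SE 0.24, adjusted p = 2.63e-03). ESRP1 was at 3.79, 2.39, 3.95 and 2.94 CPM in DU145 WT, at 0.831, 0.448, 0.622 and 0.278 CPM in DU145 mutant_1 and at 7.37, 6.13, 8.20 and 4.35 CPM in DU145 mutant_2. In LIN28A-OE mutant_1 ESRP1 was at 1.09, 1.03, 2.29 and 1.19 CPM, which overlapped LIN28A-OE WT. Without LIN28A-OE WT replicate 1 the mutant_1 count of differences was 7, with 3 higher and 4 lower, and the mutant_2 count was 3. By DESeq2 the counts were 4 in mutant_1, with 3 higher and 1 lower, and 6 in mutant_2, all higher.

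**Figure D5:**
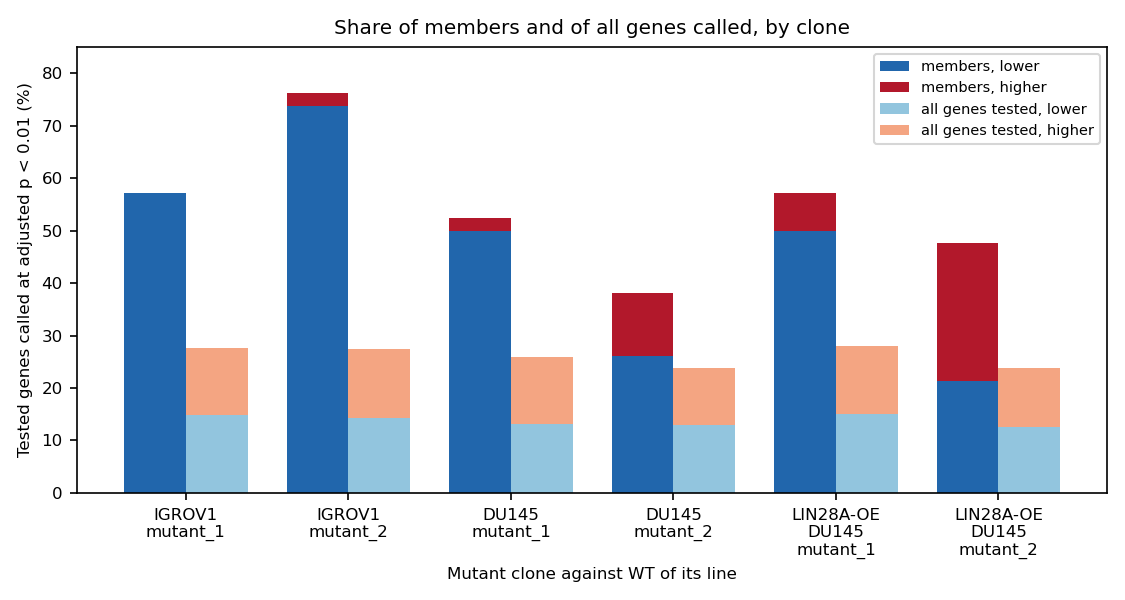
Percent of the tested genes of the list (dark bars) and of all genes tested (pale bars) called lower (blue) and higher (red) at an adjusted p under 0.01, for each mutant clone against the WT of its line. The dark blue bars reach 57.1% and 73.8% in IGROV1, 21 of 42 members in mutant_1 of both DU145 lines, and 26.2% and 21.4% in mutant_2 of DU145 and LIN28A-OE DU145.

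LIN28A-OE WT was then set against DU145 WT. LIN28A-OE WT cells were also transduced and selected with puromycin and carry passage numbers of 1 to 4 against up to 160, so that LIN28A, transduction, selection and passage cannot be told apart. In LIN28A-OE WT against DU145 WT, 9 of the 42 genes were higher and 5 lower, where 6.98% of all genes were higher and 3.19% lower, and the median was -0.01. LLGL2, a polarity protein, was at 42.5, 46.4, 43.95 and 45.1 CPM in WT and at 92.2, 132, 123 and 115 CPM in LIN28A-OE WT (2.60-fold, log2 fold change 1.37, SE 0.12, adjusted p = 5.55e-08). JUP, plakoglobin, went from 112, 119, 108 and 127 CPM to 188, 268, 322 and 306 CPM (2.33-fold, log2 fold change 1.21, SE 0.16, adjusted p = 9.04e-06). In both genes the groups did not overlap. CDH1, with the values given above, was 1.91-fold higher (log2 fold change 0.92, SE 0.16, adjusted p = 2.22e-04). ELF3, an epithelial ETS factor, went from 41.0, 64.6, 62.3 and 63.7 CPM to 80.8, 154, 117 and 151 CPM (2.17-fold, log2 fold change 1.11, SE 0.23, adjusted p = 1.62e-03). TJP3 went from 8.59, 25.2, 15.7 and 19.0 CPM to the values given above, with overlap (2.31-fold, log2 fold change 1.20, SE 0.29, adjusted p = 5.48e-03), and this call was lost when DU145 WT replicate 1, 3 or 4 or LIN28A-OE WT replicate 2, 3 or 4 was left out (adjusted p 0.0112 to 0.0266). CLDN7 fell to 6.92, 10.5, 10.1 and 15.3 CPM (2.17-fold, log2 fold change -1.14, SE 0.16, adjusted p = 3.26e-05), and EPCAM was not called (log2 fold change -0.42, SE 0.15, adjusted p = 0.0428). When only these 2 groups were fitted, TJP3, ELF3 and CLDN7 were not called (adjusted p = 0.0608, 0.0145 and 0.0130) and the count of 14 became 3, all higher. The count became 8 without DU145 WT replicate 1, without LIN28A-OE WT replicate 2 or without its replicate 3, 9 without its replicate 4, and 18 without its replicate 1, with 11 higher and 7 lower.

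The same comparison within each mutant clone gave fewer genes in mutant_1. There 6 rose with LIN28A-OE and none fell (1.99% higher and 1.51% lower among all genes), namely CDH1, ELF3, MARVELD3, LLGL2, DSP and PKP2, with log2 fold changes from 0.66 to 1.40. No fall was called by edgeR's quasi-likelihood test, with 4 lower at an unadjusted p under 0.05 and 1 called by DESeq2, and without replicate 4 of either group the count was 3. In mutant_2, 14 rose and 2 fell (11.4% higher and 8.57% lower among all genes). CDH1 (log2 fold change 1.22), LLGL2 (1.19) and ELF3 (1.05) were among those that rose, together with EPPK1, the largest at 1.77, and KRT19 and PKP3 fell (-1.28 and -0.63).

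The parental lines themselves differed in most of the genes, as they did in most genes of any kind. In DU145 WT against IGROV1 WT, 14 of 43 genes (32.6%) were higher and 17 (39.5%) lower, where 31.3% of all 15556 genes were higher and 28.7% lower. The share higher was thus near that of all genes. KRT7 had a mean of 2901 CPM in DU145 WT and 0.708 CPM in IGROV1 WT. EVPL, the plakin envoplakin, had 2727 counts over DU145 WT and none over IGROV1 WT, at least 1668-fold higher against a floor of 3 counts over the group. CDH1 was 18.9-fold and CLDN4 18.7-fold higher in DU145 WT, while AP1M2, an epithelial clathrin adaptor subunit, was 32.2-fold and EPPK1 15.9-fold lower. The lines come from different tissues and donors and were grown in different media, which cannot be told apart here.

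Whether the mutant effect differed between the lines was tested directly, as the IGROV1 effect minus the DU145 effect with both clones averaged. Of 43 genes, 28 differed, 23 with the more negative effect in IGROV1 and 5 with the more negative effect in DU145, where 24.1% of all genes differed. Among the 28, ESRP1 did not pass the filter in IGROV1 and PRSS8 did not in DU145, so their differences have no exact size. The same holds for MARVELD3, which had no count over IGROV1 mutant_1. The largest differences were those of PKP3 (-9.46 on the log2 scale, SE 0.27, adjusted p = 7.47e-24), ST14 (-7.63, SE 0.31, adjusted p = 5.14e-20), EPCAM (-7.47, SE 0.29, adjusted p = 1.69e-20) and KRT8 (-7.26, SE 0.38, adjusted p = 6.84e-17). The 5 in the other direction were PKP2 (3.02), CLDN4 (2.63), MAL2 (2.37), CLDN7 (1.30) and TJP3 (1.22). Of these, CLDN4 and MAL2 were called lower in both DU145 clones, PKP2 and CLDN7 in mutant_2 only, and TJP3 in neither. The line comparisons share no library. With both clones averaged, 13 genes were called lower in both lines, which is 43.3% of the 30 in IGROV1 and 72.2% of the 18 in DU145. Both shares were near those of all 42 tested genes of the list called lower, 42.9% in DU145 and 71.4% in IGROV1. The 13 were CDH1, CGN, DSC2, DSG2, EPCAM, GRHL1, MAL2, OCLN, OVOL2, PARD6B, PPL, SPINT2 and ST14. Of these, only DSC2, DSG2, MAL2, OCLN and PARD6B were called lower in DU145 mutant_2, while all were in DU145 mutant_1. In IGROV1, OCLN and PPL were called in mutant_2 only and PARD6B in mutant_1 only. With the LIN28A-OE line, 10 were shared (33.3% of 30 and 58.8% of 17, the latter below that 71.4%). The count of differences was 28 without IGROV1 mutant_1 replicate 4 and 29 without IGROV1 mutant_2 replicate 4.

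A second list of 48 other junction and epithelial genes, such as further claudins, nectins, catenins and basal keratins, was followed beside these. In IGROV1, 30 of them were tested, and 8 fell and 5 rose in mutant_1 (median log2 fold change -0.18) and 9 fell and 5 rose in mutant_2 (median -0.10). In DU145, 31 were tested, with 8 lower and 2 higher in mutant_1 and 8 lower and 4 higher in mutant_2. In LIN28A-OE DU145 the counts were 8 lower and 4 higher in mutant_1 and 10 lower and 2 higher in mutant_2. In both IGROV1 clones and in mutant_1 of both DU145 lines the part called lower was smaller than in the main list, while in DU145 mutant_2 it was 8 of 31 beside 11 of 42, and in LIN28A-OE mutant_2 10 of 31 beside 9 of 42. Among all genes, 12.5 to 15.1% were called lower and 10.9 to 13.1% higher in these 6 comparisons. With the IGROV1 clones averaged, 10 fell and 4 rose, and those that fell included DSC3, a desmocollin, and the epithelial transcription factor KLF5.

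Of 9 repressors of epithelial genes and mesenchymal markers, 4 passed the filter in IGROV1 and 7 in DU145. In IGROV1 mutant_1, VIM and FN1 fell (log2 fold changes -0.48 and -0.86). In mutant_2 the values of SNAI1 (log2 fold change 1.69, adjusted p = 0.0107), ZEB1 (0.81, adjusted p = 0.0783), VIM (0.32, adjusted p = 0.0296) and FN1 (-0.19, adjusted p = 0.456) were not called. ZEB1 had means of 39.2, 41.2 and 70.5 CPM in IGROV1 WT, mutant_1 and mutant_2, and SNAI2 had no count in any IGROV1 library. In DU145 mutant_1, ZEB2, SNAI2 and FN1 rose, and ZEB2 was at 0.102, 0.519, 0.184 and 0.707 CPM in WT, at 5.45, 5.47, 5.69 and 4.59 CPM in mutant_1 and at 1.07, 1.75, 1.51 and 1.84 CPM in mutant_2 (log2 fold changes 3.85, adjusted p = 7.50e-09, and 1.93, adjusted p = 5.04e-04). SNAI2 was at 2.97, 7.06, 5.06 and 5.06 CPM in DU145 WT and at 14.9, 10.8, 13.4 and 16.5 CPM in mutant_1 (log2 fold change 1.49, adjusted p = 4.67e-05). In LIN28A-OE mutant_1 the same 3 genes rose, with log2 fold changes of 3.28 for ZEB2, 2.18 for SNAI2 and 1.29 for FN1, and in LIN28A-OE mutant_2 VIM fell (log2 fold change -0.90). The repressors ZEB2 and SNAI2 were thus higher in the DU145 clone with more epithelial genes called lower, and their part in those falls was not tested.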

How the data were processed

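Gene counts of 36 poly(A) RNA libraries were used, 4 in each of 9 groups set by the labels. Per the labels and the study's methods, the authors trimmed reads with Trimmomatic 0.39, aligned them to hg38 with HISAT2 2.1.0 and counted them per gene with HTSeq-count. The deposited values are raw counts, and the annotation, strand setting and HTSeq version are not given in the sources used here. The HTSeq summary rows, which name no gene, stayed out of totals and tests (no feature 7.25 to 12.6%, ambiguous 1.52 to 1.92%, not unique 9.28 to 14.5% of each file's reads). CPM is a count scaled to the total of gene-assigned reads in that library. Folds between means are ratios of CPM, and log2 fold changes are fitted values.

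Genes were filtered with filterByExpr, scaled by TMM and tested with edgeR 4.0.16 (quasi-likelihood, robust) in R 4.3.3, with p-values adjusted by Benjamini-Hochberg over all genes tested and called under 0.01. One fit took the 12 IGROV1 libraries, one the 24 DU145-derived libraries, and one all 36 for contrasts across lines. The script was tested on simulated counts first. Per-kilobase levels used summed exon lengths of GENCODE v44. SE is the absolute log2 fold change divided by the square root of the quasi-likelihood F. Counting intervals are 95% intervals that cover counting error only, and floors are 3 counts over a group. For genes with few counts in a group the SE can be much narrower than the counting interval, as for PKP3 in IGROV1 mutant_2 and PKP2 in DU145 mutant_2. The closest replicates differed by more than sampling noise, so none was merged.

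Genes chosen by rule to be given library by library were CDH1, EPCAM and, per comparison, up to 6 called genes with the largest absolute log2 fold change and a mean of 5 CPM or more in one group. Other genes given library by library, among them CLDN1, CLDN7 and KRT18 in IGROV1, genes of lower level and genes of the other lists, were added after their values were seen. The 47 genes, the other lists and the tests were chosen with earlier results of these data known. Alternatives were DESeq2 1.42.0 and its size factors, no filter on low counts, a fit of the groups compared only, a threshold of 0.05, leaving out each library, and a replicate block. Replicate numbers mark successive passages. Same-numbered libraries deviated together in every pair (r over 0.1) for IGROV1 mutant_1 with mutant_2 (0.19 to 0.86), DU145 mutant_1 with mutant_2 (0.17 to 0.70) and LIN28A-OE mutant_2 with LIN28A-OE WT (0.25 to 0.64), and not for the other comparisons. The small RNA libraries were not used here. Single values of 2 genes from the marker and second lists are not reported here.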

Additional observations from a re-analysis of the deposited data

Results flagged for a closer look

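Of 85 groups of 4 values tested for a library far from the others, 4 had one, about the number that chance gives at 1 in 20. CDH1 in IGROV1 mutant_1 had its highest library at 2.85 CPM, with the next at 0.516 CPM. ST14 in DU145 mutant_1 had its lowest at 4.80 CPM (next 5.82). PKP2 in LIN28A-OE DU145 WT had its highest at 8.45 CPM (next 6.74), and ELF3 in DU145 WT had its lowest at 41.0 CPM (next 62.3).

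The mutant effect differed between IGROV1 and DU145 by the test of the difference in 28 genes, given here as the IGROV1 effect minus the DU145 effect on the log2 scale. Desmosome and plakin genes differed by -9.46 for PKP3, -5.69 for DSC2, -3.19 for EPPK1, -1.77 for DSG2 and 3.02 for PKP2. Proteases and inhibitors differed by -7.63 for ST14, -5.54 for SPINT1, -4.81 for SPINT2 and -4.27 for PRSS8. PRSS8 did not pass the filter in DU145, with 22, 2 and 14 counts over WT, mutant_1 and mutant_2. It had 2 and 1 counts over the IGROV1 mutants, so the PRSS8 value gives no exact size. Adhesion genes and regulators differed by -7.47 for EPCAM, -2.90 for CDH1, -6.10 for ESRP2 and -3.49 for ESRP1. ESRP1 did not pass the filter in IGROV1, with 45, 2 and 1 counts over WT, mutant_1 and mutant_2. Its value therefore gives no exact size. Keratins differed by -7.26 for KRT8 and -1.58 for KRT18. Tight junction genes differed by -4.41 for MARVELD3, -3.95 for CLDN1, -3.85 for MARVELD2, -0.50 for TJP1, 1.22 for TJP3, 1.30 for CLDN7 and 2.63 for CLDN4. MARVELD3 had 68 counts over IGROV1 WT and none over mutant_1, so the MARVELD3 value gives no exact size. Polarity genes differed by -4.245 for CRB3 and -0.57 for LLGL2, and the membrane traffic group by -2.70 for MAP7, -2.64 for CDS1, -1.82 for AP1M2 and 2.37 for MAL2.

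The mutant effect differed with and without LIN28A-OE, as the effect with LIN28A-OE minus the effect without it, by 1.32 for PKP2 and 3.08 for ESRP1 in mutant_1, and by 1.40 for ST14, 2.02 for CLDN7 and 2.80 for ESRP1 in mutant_2.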

How the results depend on the processing

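No value reversed under any alternative run. Of the log2 fold changes of called genes chosen by the rule, over all settings, 606 kept their direction and their side of the threshold and 18 lost the call, namely CDH1 in IGROV1 mutant_1 under 9 settings (given in the report, and adjusted p = 0.0124 when only the groups compared were fitted), TJP3 in LIN28A-OE WT against DU145 WT under 7 (adjusted p up to 0.0608), and CLDN7 and ELF3 there when only the groups compared were fitted (adjusted p = 0.0130 and 0.0145). The count for LIN28A-OE WT against DU145 WT (14) was 8 to 18 with one library left out and 3 when only the groups compared were fitted. For LIN28A-OE mutant_1 against DU145 mutant_1 (6) it was 3 to 6 with one library left out and 12 at an adjusted p under 0.05. Differences of the mutant effect with and without LIN28A-OE numbered 4 by DESeq2 and 2 to 7 with one library left out in mutant_1 (2), and 6 by DESeq2 in mutant_2 (3). In all other counts the value stayed within 1.5 times, with one library left out giving 23 to 28 for IGROV1 mutant_1, 24 to 33 for IGROV1 mutant_2, 19 to 23 for DU145 mutant_1, 15 to 17 for DU145 mutant_2, 22 to 25 for LIN28A-OE mutant_1, 17 to 24 for LIN28A-OE mutant_2 and 25 to 29 for the difference between lines. The causes were not tested.

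With the replicate number as a block, the counts were 26 (main 24) for IGROV1 mutant_1, 35 (32) for IGROV1 mutant_2, 22 (22) for DU145 mutant_1, 17 (16) for DU145 mutant_2, 24 (24) for LIN28A-OE mutant_1, 22 (20) for LIN28A-OE mutant_2 and 28 (28) for the difference between lines. The block lost CDH1 between the DU145 clones, and CDH1 and TJP3 in the LIN28A-OE mutants averaged (19 against 21), and changed no other call of the list to not called. Among the calls it added were ELF3, F11R and PKP2 in IGROV1 mutant_2, LLGL2 and PPL in IGROV1 mutant_1, KRT8 in DU145 mutant_2, AP1M2 and KRT18 in LIN28A-OE mutant_2, CLDN3 between the IGROV1 clones, and CLDN3 and OCLN between the DU145 clones. All 4 libraries correlated best with their own number between the DU145 clones, and 1 to 3 of the 4 did so in each of the other comparisons checked. ESRP1 in IGROV1 and PRSS8 in the IGROV1 mutants rest on few counts, and a difference between the mutant clones was not detectable for them at this depth.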

Other observations

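In the IGROV1 mutants, replicate 4 of each clone departed from replicates 1 to 3 in the same direction for several of the genes. ELF3 was at 60.3, 69.6, 69.7 and 139 CPM in mutant_1 and at 85.3, 59.7, 63.3 and 131 CPM in mutant_2, against 136 to 156.5 CPM in WT. MAL2 was at 148, 133, 139 and 38.04 CPM in mutant_1 and at 103, 116, 104 and 43.1 CPM in mutant_2. ZEB1, a repressor of epithelial genes, was at 45.5, 57.0, 50.1 and 12.03 CPM in mutant_1 and at 89.6, 85.7, 69.3 and 37.3 CPM in mutant_2. These genes were chosen after their values were seen.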
